A study of Homo sapiens with 18 samples.

Results

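Guanylate-binding proteins (GBPs) and apolipoprotein L proteins (APOLs) are 2 families of interferon-inducible effectors. Their 8 members examined here are GBP1, GBP2, GBP3, GBP4, APOL1, APOL2, APOL3 and APOL6, chosen by name, and all 8 were found among the 35044 genes of the count table by their Ensembl identifiers. Expression was measured by RNA-seq of total RNA in 18 libraries, 3 for each of 6 conditions. HCC1937 is a breast cancer line with mutated BRCA1. The study describes HCC1937-EV as these cells with the vector alone, and describes HCC1937-OE-BRCA1 as the same cells expressing transfected wild-type BRCA1. Either line was sequenced untreated (0 h) and under the PARP inhibitor (PARPi) olaparib, given at 10 µmol/L for 12 h or 24 h. The sample labels give the genotype of HCC1937-EV as WT and list olaparib for the 0 h libraries too. Nothing says whether the 3 libraries of a condition came from separate cultures, so the spread between them may be technical. Whether each line is a single clone was not given in the sources used here.

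GBPs are large GTPases of the dynamin superfamily. Interferon-γ and, more weakly, type I interferons induce them, in part through the transcription factor IRF1. GBPs assemble on intracellular bacteria and parasite vacuoles, where they open the membrane and recruit caspase-4. APOLs are amphipathic proteins that bind lipids and act on membranes, and the best known, APOL1, is the trypanosome lytic factor of human serum. Several family members are induced in epithelial cells by the same cytokines. In both families the genes sit next to each other in the genome. On GRCh38 (GENCODE release 29), GBP3, GBP1, GBP2 and GBP4 lay in this order on chromosome 1 between positions 89006666 and 89198932, all on the minus strand. APOL6 lay on chromosome 22 from position 35648395, and APOL3, APOL2 and APOL1 lay together further along, up to position 36267530.

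The 250 bases before the RefSeq start site are shown for GBP1, GBP3 and GBP4, the only members with an entry in the promoter table. They are given 5′ to 3′ on the coding strand (build GRCh38.p14, minus strand of chromosome 1), at chr1:89065209-89065458 for GBP1, chr1:89022867-89023116 for GBP3 and chr1:89198943-89199192 for GBP4. Capitals mark matches to an interferon-stimulated response element (ISRE, searched on both strands as GAAA, any 2 bases and GAAA again, which reads as TTTC, any 2 bases and TTTC on the other strand) or a gamma-activated sequence (GAS, searched as TTCNNNGAA, which reads the same on both strands).
GBP1: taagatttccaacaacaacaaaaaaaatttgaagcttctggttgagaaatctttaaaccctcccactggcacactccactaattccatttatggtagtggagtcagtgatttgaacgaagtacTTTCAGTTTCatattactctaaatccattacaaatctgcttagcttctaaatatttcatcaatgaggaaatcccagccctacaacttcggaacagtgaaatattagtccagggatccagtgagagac
GBP3: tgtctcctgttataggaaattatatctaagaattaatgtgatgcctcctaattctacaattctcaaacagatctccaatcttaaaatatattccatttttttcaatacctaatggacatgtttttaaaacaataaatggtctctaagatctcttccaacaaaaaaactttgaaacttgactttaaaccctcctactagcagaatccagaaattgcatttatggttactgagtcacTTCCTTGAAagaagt
GBP4: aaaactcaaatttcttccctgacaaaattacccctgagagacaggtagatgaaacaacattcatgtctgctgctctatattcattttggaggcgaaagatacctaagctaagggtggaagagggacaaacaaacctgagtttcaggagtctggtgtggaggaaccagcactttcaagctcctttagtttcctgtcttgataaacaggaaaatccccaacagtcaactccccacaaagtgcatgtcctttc
GBP1 held 1 ISRE match from position -127 to -118 relative to the start, and GBP3 held 1 GAS match from -15 to -7. Among 35116 promoters of the same length, 3.02% held an ISRE match and 6.57% a GAS match, so a match in a single promoter is a description of these letters and not a mapped binding site. No match was found in the window of GBP4, which says only that these letters are not in it. GBP2, APOL1, APOL2, APOL3 and APOL6 had no entry in the promoter table.

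Before the results, the libraries were checked against their labels. Total counts lay between 15081973 and 17571922 per library, so that a level of 1 CPM (read counts scaled to the TMM-normalised library size) stood for 14.7 to 17.0 counts. BRCA1 was at 118 ± 7.70 CPM in untreated HCC1937-EV and 138 ± 24.0 CPM in untreated HCC1937-OE-BRCA1 (SD, n = 3), and gene counts do not separate the mutated transcript from the transfected one. Of 8 epithelial markers, EPCAM (at most 0.021 CPM as a condition mean), KRT5, KRT14, CDH1 and KRT19 were at or near 0 in the libraries labelled EV, while KRT8 and KRT18 were abundant, and the summed level of the list ranged from 2424 to 3171 CPM against 6309 to 10277 CPM in the libraries labelled OE. Fibroblast markers summed to 96.9 to 153 CPM in the libraries labelled EV, nearly all from COL1A1, and to 6.22 to 11.8 CPM in those labelled OE. The libraries labelled EV thus go against their label in epithelial markers, and between the untreated lines 72.7% of 18335 tested genes differed. A difference between the lines therefore cannot be told apart into BRCA1 and other differences between them. Comparisons within the libraries labelled OE share with the libraries labelled EV the normalisation, the filter on low counts and the estimate of the spread.

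All 8 genes passed the filter on low counts. GBP1, GBP2 and GBP4 passed it through the libraries labelled OE alone, and APOL3 and APOL1 through those and 1 or 2 of the conditions labelled EV, respectively. Levels between genes were compared per kb of exonic length. This length joins the exons of all annotated transcripts, 6276 bases for GBP2, whose longest protein-coding transcript has 2220 bases. The order below therefore depends on the annotation, and levels per kb of transcript were not computed. In untreated HCC1937-OE-BRCA1, GBP3 (14.7 ± 1.86 CPM per kb) and GBP1 (13.9 ± 2.18) stood highest, followed by APOL1 (11.2 ± 1.61), APOL6 (9.36 ± 2.05), APOL2 (6.45 ± 0.29), GBP4 (3.81 ± 1.12), APOL3 (3.19 ± 0.51) and GBP2 (2.65 ± 0.31; SD, n = 3). GBP3 and GBP1, APOL1 and APOL6, and GBP4 and APOL3 differed by less than the larger SD of the pair, and the other 4 steps in this order were wider than that. After 12 h, GBP1 led with 27.9 ± 1.13 CPM per kb and GBP4 had passed APOL2, at 11.8 ± 0.33 against 9.26 ± 0.61. After 24 h, APOL1 (23.6 ± 1.32 CPM per kb) and GBP3 (22.5 ± 1.76) led within 1 SD of each other, and GBP1 had fallen back to 14.6 ± 0.59. By this length GBP2 was last at each of the 3 times in the libraries labelled OE, which its long exonic annotation may account for in part.

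**Figure D1:**
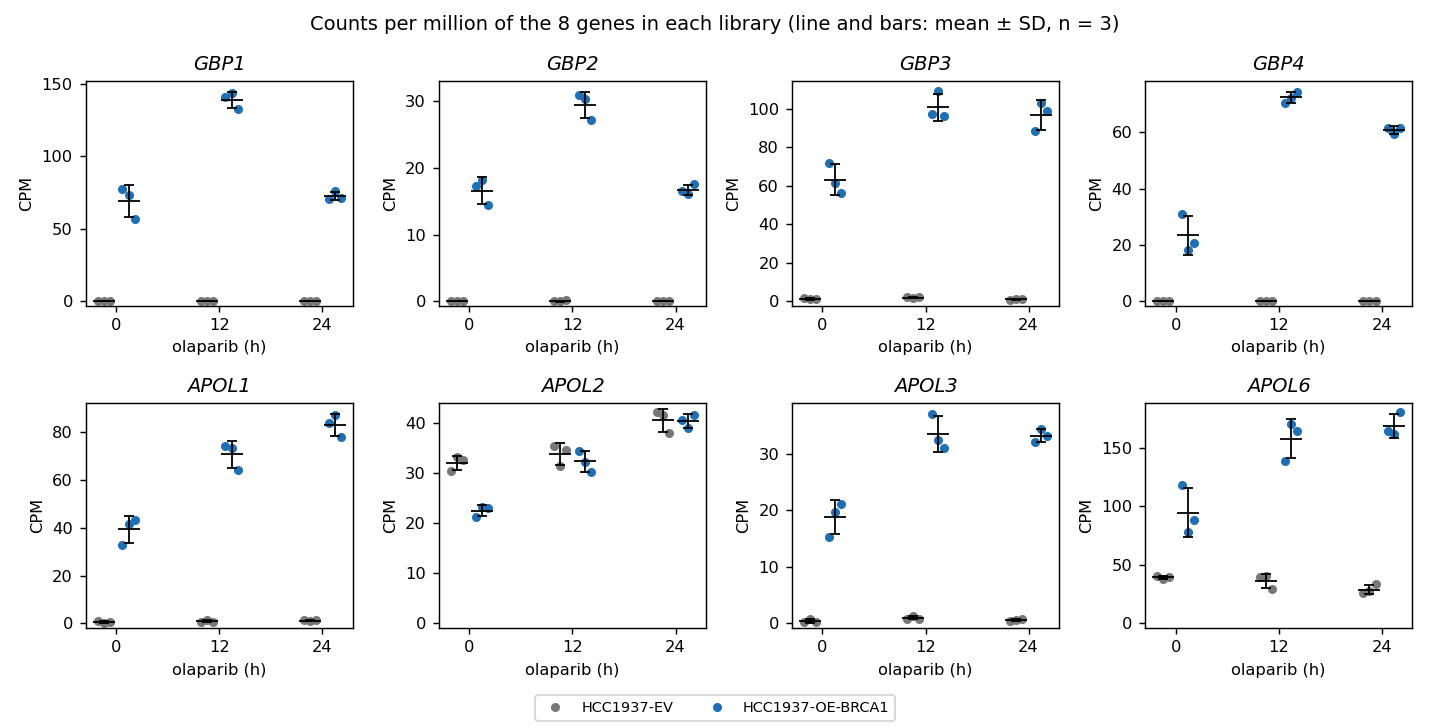
CPM of each gene (y axis, linear from 0) in every library by hours of olaparib (x axis), with grey points for the libraries labelled EV and blue points for those labelled OE, and the mean ± SD of 3 libraries as a line with bars. GBP1 and GBP2 peak at 12 h in the libraries labelled OE, the other 6 genes stay up at 24 h, and only APOL2 and APOL6 stand well above 0 in the libraries labelled EV.

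The first comparison asked whether olaparib changed the 2 families in HCC1937-OE-BRCA1. After 12 h all 8 genes were higher than at 0 h, each without overlap between the 3 libraries of either time. At an adjusted p under 0.05, 1.70% of all genes tested were called higher in this comparison, and 9.21% were higher without overlap. The median log2 fold change was 0.83 over the 8 genes and 0.00 over all genes tested. Among the 4 GBPs the rise ran from 1.60-fold (GBP3) to 3.09-fold (GBP4), and among the 4 APOLs from 1.44-fold (APOL2) to 1.79-fold (APOL1).

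GBP1, the founding member, forms the coat on cytosolic bacteria to which other GBPs are recruited. Its level was 77.5, 73.1 and 56.9 CPM at 0 h, rising to 141, 144 and 133 CPM at 12 h, and was 70.7, 76.2 and 71.6 CPM at 24 h. The 12 h libraries lay far above both other times, which overlapped. The log2 fold change was 1.01 ± 0.12 (SE) after 12 h (adjusted p = 1.2e-05, edgeR quasi-likelihood test) and 0.07 ± 0.12 after 24 h (adjusted p = 0.757, 95% interval -0.16 to 0.31). From 12 h to 24 h it fell by 0.93 on the log2 scale (adjusted p = 0.000242), a comparison in which 0.862% of genes tested were called lower.

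GBP2, a prenylated GBP that joins the GBP1 coat, was lower in level but followed the same course. It stood at 17.3, 18.2 and 14.4 CPM at 0 h, at 31.0, 30.3 and 27.3 CPM at 12 h, and at 16.5, 16.2 and 17.6 CPM at 24 h. Again the 12 h libraries stood alone. The log2 fold change was 0.83 ± 0.16 after 12 h (adjusted p = 0.00738) and 0.01 ± 0.16 after 24 h (adjusted p = 0.995, 95% interval -0.33 to 0.35), and the fall from 12 h to 24 h was -0.82 ± 0.16 (adjusted p = 0.0169). That last call was lost when any of 5 of the 6 libraries was left out (all but the 12 h library of replicate 3), with log2 values from -0.85 to -0.78 and adjusted p up to 0.0998.

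GBP3, closest to GBP1 in sequence, and GBP4, which lacks the prenylation motif, kept their rise. GBP3 went from 71.8, 61.3 and 56.1 CPM at 0 h to 97.1, 109 and 96.5 CPM at 12 h and to 88.4, 103 and 98.8 CPM at 24 h. GBP4 went from 31.2, 18.3 and 20.7 CPM to 70.4, 72.2 and 74.4 CPM and then to 61.5, 59.2 and 61.5 CPM. For both genes every treated library lay above every 0 h library, as was so for 9.21% of genes tested at 12 h and 14% at 24 h, and the 0 h library of replicate 1 was the highest of the 3 untreated ones.

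The log2 fold change of GBP4 was 1.63 ± 0.16 after 12 h (adjusted p = 3.2e-05) and 1.38 ± 0.16 after 24 h (adjusted p = 9.6e-05), the largest among the 8 genes at both times. That of GBP3 was 0.68 ± 0.13 (adjusted p = 0.00505) and 0.62 ± 0.13 (adjusted p = 0.00593). From 12 h to 24 h neither change passed the test, at -0.06 ± 0.13 for GBP3 and -0.25 ± 0.16 for GBP4, although the 24 h libraries of GBP4 all lay below those of 12 h, as in 17% of genes tested. Without the 12 h library of replicate 2, the 12 h rise of GBP3 was 0.61, with an adjusted p of 0.0503.

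Of the APOLs, APOL1, the only secreted member, rose most at 24 h. It was at 32.8, 41.7 and 43.3 CPM at 0 h, at 74.0, 73.4 and 64.1 CPM at 12 h and at 83.7, 87.1 and 77.9 CPM at 24 h. The 3 times did not overlap, in ascending order, and 18.4% of genes tested were higher at 24 h than at 12 h without overlap. The log2 fold change against 0 h was 0.84 ± 0.16 after 12 h (adjusted p = 0.00358) and 1.08 ± 0.16 after 24 h (adjusted p = 0.000175), and the step from 12 h to 24 h did not pass the test (0.23 ± 0.16, adjusted p = 0.453).

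APOL2, an intracellular member, also ascended over the 3 times without overlap. Its values were 21.3, 23.2 and 23.0 CPM at 0 h, then 34.4, 32.2 and 30.2 CPM at 12 h and 40.5, 38.9 and 41.6 CPM at 24 h. The log2 fold change was 0.52 ± 0.10 after 12 h (adjusted p = 0.00365) and 0.84 ± 0.10 after 24 h (adjusted p = 1.1e-05). From 12 h to 24 h it was 0.32 ± 0.10 (adjusted p = 0.101). The 12 h call was lost in a fit of the compared libraries alone (0.51, adjusted p = 0.0994).

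APOL3, a cytosolic member that dissolves bacterial membranes, and APOL6, a member with a BH3-like motif, were higher at 12 h. Their change from 12 h to 24 h was not called. APOL3 was at 15.4, 19.8 and 21.2 CPM at 0 h, at 37.1, 32.4 and 31.0 CPM at 12 h and at 32.1, 34.4 and 33.1 CPM at 24 h. APOL6 was at 118, 78.1 and 88.2 CPM, then at 139, 170 and 164 CPM, and then at 165, 162 and 181 CPM. In both genes the 12 h and 24 h libraries overlapped each other and lay above 0 h.

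The log2 fold change of APOL3 was 0.83 ± 0.18 after 12 h (adjusted p = 0.00919) and 0.82 ± 0.18 after 24 h (adjusted p = 0.00575), and that of APOL6 was 0.73 ± 0.14 (adjusted p = 0.00385) and 0.83 ± 0.14 (adjusted p = 0.000672). From 12 h to 24 h the differences were -0.01 ± 0.17 for APOL3 and 0.10 ± 0.14 for APOL6. Without the 12 h library of replicate 1, the 12 h rise of APOL3 was 0.76, with an adjusted p of 0.0624.

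At 24 h, 6 of the 8 genes were therefore called higher than at 0 h, where 4.71% of all genes tested were called higher, and the median log2 fold change was again 0.83 over the 8 genes and 0.02 over all genes tested. The 12 h and 24 h comparisons share the 0 h libraries. Against 12 h, 2 of the 8 genes were called lower at 24 h and 0 higher, where 0.862% and 0.791% of genes tested were. That GBP1 and GBP2 took a different course from the other members was not tested between genes.

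**Figure D2:**
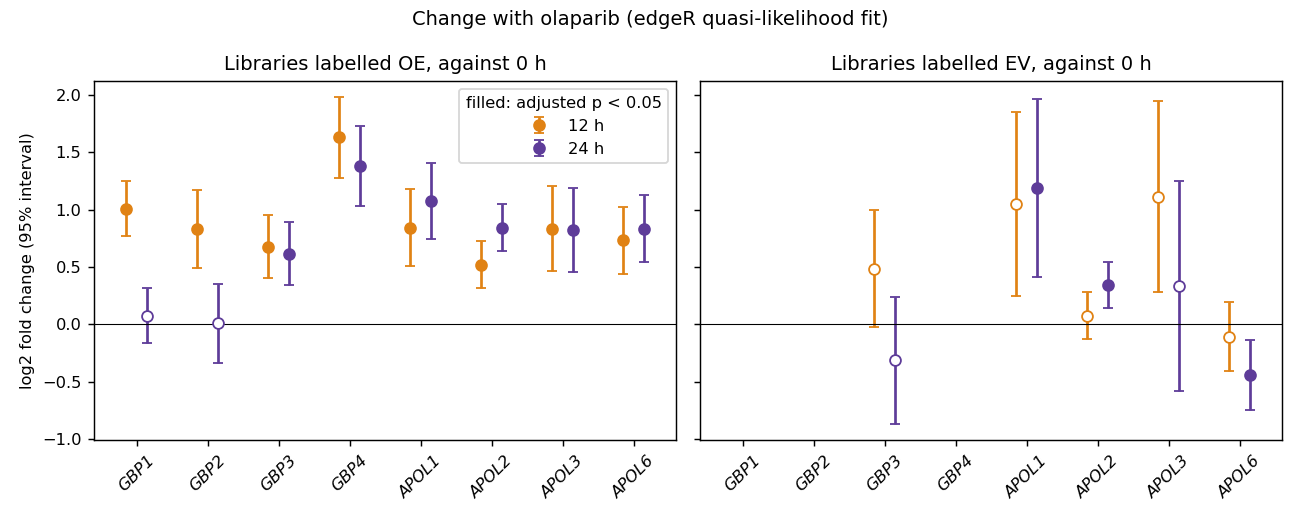
Log2 fold change against 0 h (y axis) of each gene after 12 h (orange) and 24 h (purple), with 95% intervals from the edgeR fit, in the libraries labelled OE (left) and EV (right), where filled points have an adjusted p under 0.05 and GBP1, GBP2 and GBP4 are not drawn on the right because their libraries labelled EV held almost no counts. GBP1 and GBP2 lie at 0.07 and 0.01 after 24 h on the left, while the other 6 genes lie between 0.62 and 1.38.

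Among the remaining relatives, GBP5 and the pseudogene GBP1P1 were measurable at low levels in HCC1937-OE-BRCA1 and had 0 counts in all 9 libraries labelled EV. GBP5 was at 0.638 ± 0.37 CPM at 0 h, then 1.45 ± 0.17 CPM at 12 h and 1.99 ± 0.40 CPM by 24 h. Its log2 fold change was called at 24 h (1.62 ± 0.44, adjusted p = 0.0341) but not at 12 h (1.17 ± 0.45, adjusted p = 0.277). GBP1P1 was at 1.01 ± 0.19, 5.03 ± 1.01 and 4.13 ± 0.65 CPM, with log2 fold changes of 2.30 ± 0.29 after 12 h (adjusted p = 0.000258) and 2.02 ± 0.29 after 24 h (adjusted p = 0.000546). GBP6, APOL4 and APOL5 had at most 19 counts summed over the 3 libraries of any condition and were not tested. No identifier in the count table matched GBP7.

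Near-identical copies can share reads. Of the 75-base stretches of the longest GBP1 transcript, 5.23% also occur in transcripts of GBP1P1 or GBP3, against 1.07% for GBP3 (in GBP1 or GBP1P1), 0.466% for GBP2 and none for APOL2, APOL3 and APOL6. For GBP4 (1.26%) and APOL1 (0.513%) the shared stretches lie in transcripts of genes outside both families. How the authors' counting treated such reads was not given in the sources used here, so the low counts of GBP1P1 are uncertain.

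The genes around the clusters were set beside the members. In the GBP cluster the 5 nearest tested protein-coding genes on each side had log2 fold changes of -0.28 to 0.15 at 12 h and -0.09 to 0.40 at 24 h in HCC1937-OE-BRCA1, and 0 of these 10 genes were called at either time. Over all 18335 genes tested, 423 were called in either direction at 12 h and 1515 at 24 h. Counts of 0 among 10 or 11 neighbours are near these shares. The median of the 10 GBP neighbours was -0.03 at 12 h and 0.29 at 24 h, against 0.00 and 0.02 over all genes tested. In the APOL cluster 11 neighbours, including RBFOX2 between APOL6 and APOL3, gave 0 calls at 12 h. At 24 h HMOX1, heme oxygenase, was higher (0.50 ± 0.13, adjusted p = 0.0206) and MYH9, the non-muscle myosin gene next to APOL1, was lower (-0.66 ± 0.09, adjusted p = 7.1e-05). At 12 h, 0 of the 10 GBP neighbours and 1 of the 11 APOL neighbours had an unadjusted p under 0.05, and at 24 h 3 of the 10 GBP neighbours did.

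**Figure D3:**
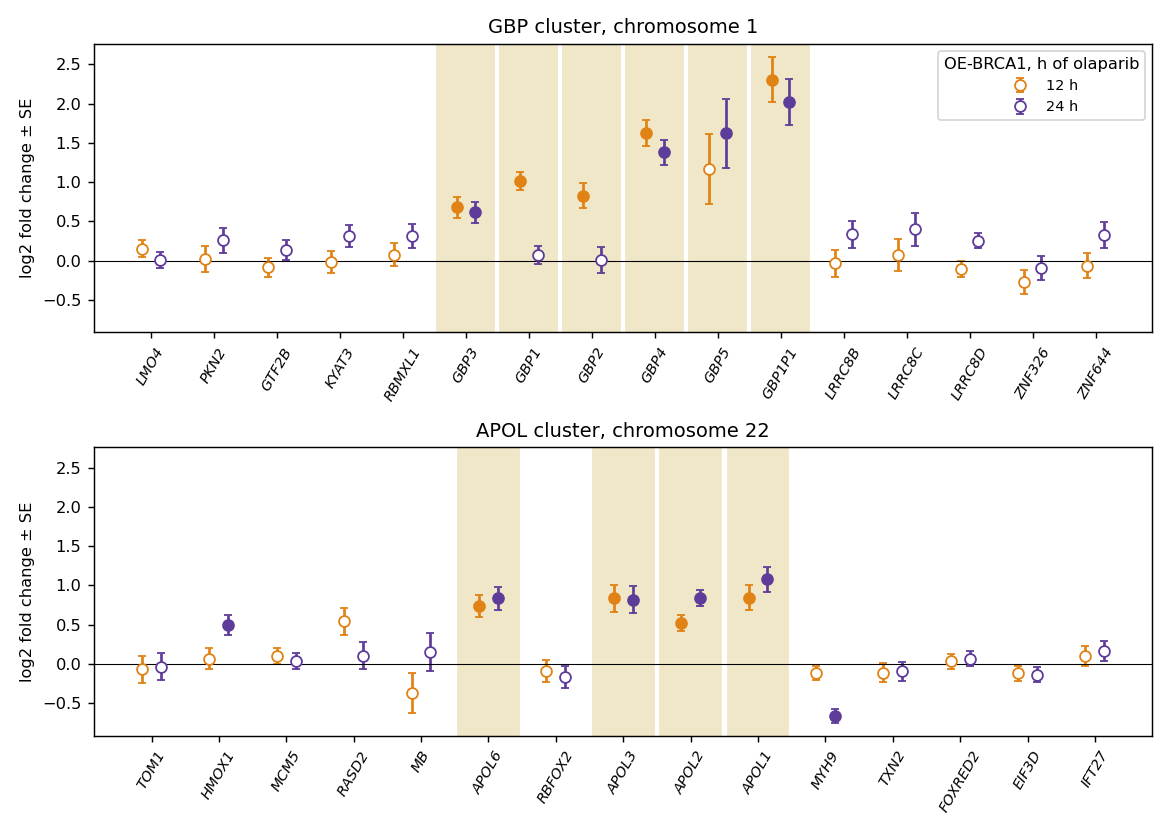
Log2 fold change against 0 h ± SE (y axis) in the libraries labelled OE after 12 h (orange) and 24 h (purple) for the genes of each cluster and their nearest tested neighbours in genomic order (x axis, order only), where filled points have an adjusted p under 0.05 and shading marks GBP and APOL genes, including GBP5 and GBP1P1. Of the 21 neighbours, 0 are filled at 12 h, and HMOX1 and MYH9 are filled at 24 h. Over all 18335 genes tested, 423 were called at 12 h and 1515 at 24 h.

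Of the interferon signalling genes upstream of both families, 18 were tested. At 12 h in HCC1937-OE-BRCA1, 4 of 18 were called higher and 0 lower, against the same 1.70% of all genes tested, and the median log2 fold change of the list was 0.34. STAT2, a subunit of the type I interferon transcription factor ISGF3, rose by 1.33 ± 0.08 from a mean of 66.7 to 168 CPM, and USP18, the negative regulator of the type I receptor, rose by 1.07 ± 0.10 from 84.6 to 177 CPM. IRF1, a transcription factor that drives GBP genes, rose by 0.65 ± 0.10 from 42.2 to 66.4 CPM. At 24 h 6 were called higher and 0 lower, against 4.71% of all genes tested called higher, among them JAK2 (0.87 ± 0.21) and IRF2 (0.54 ± 0.09). Between 12 h and 24 h edgeR called 0 of the 18 genes (5 had an unadjusted p under 0.05). Over all genes tested, 0.791% were called higher and 0.862% lower, so a count of 0 in this list is near the share. IRF1 was at 0.22 ± 0.10 (adjusted p = 0.257), while GBP1 and GBP2 fell over the same interval. JAK2 and IRF2 were named after their values were seen.

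**Figure D4:**
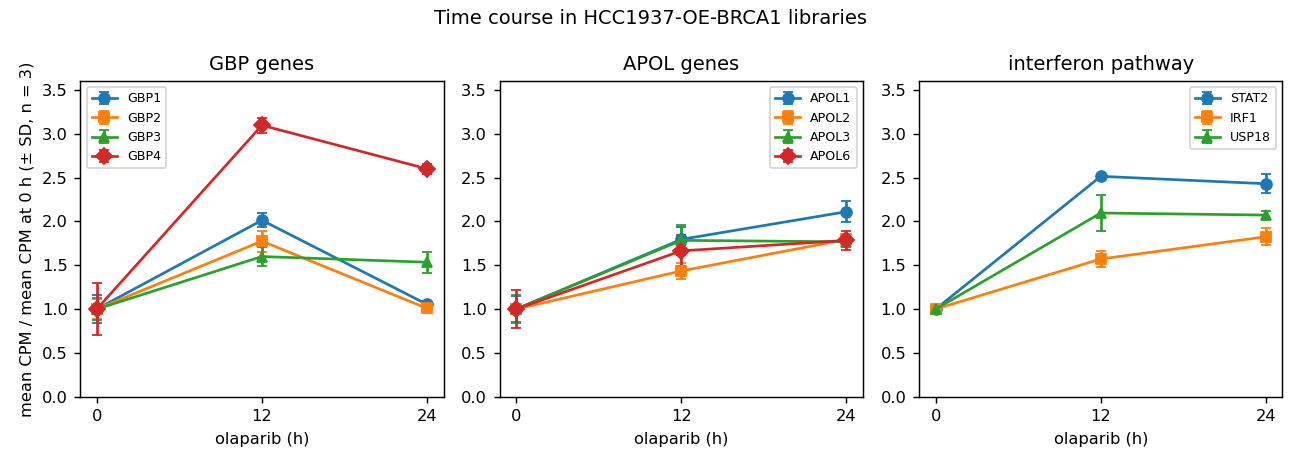
Mean CPM divided by the mean CPM at 0 h (y axis, from 0, with SD over 3 libraries divided by the same mean) in the libraries labelled OE by hours of olaparib (x axis) for the 4 GBP genes (left), the 4 APOL genes (middle) and STAT2, IRF1 and USP18 (right). GBP1 and GBP2 are back near 1 at 24 h, and the genes in the middle and on the right are not.

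Of 13 tested partners that act with GBPs in inflammasome and ubiquitin pathways, 2 were called higher and 0 lower at 12 h, and 3 were higher and 0 lower at 24 h, where 1.70% and 4.71% of all genes tested were called higher. RNF213, a giant ubiquitin ligase that marks bacteria, went from 210 to 448 and 420 CPM (log2 fold change 1.09 ± 0.16 at 12 h) and was called at both times. RBCK1, a subunit of the linear ubiquitin ligase, was called at 12 h (0.43 ± 0.11, adjusted p = 0.0386), and CASP1 (0.53 ± 0.15) and CASP4 (0.50 ± 0.13), the inflammatory caspases, were called at 24 h. Among 12 other GTPases of the dynamin superfamily, MX1, the interferon-induced antiviral GTPase, was the only gene called at either time, against the same shares over all genes, at 1.01 ± 0.10 after 12 h and 0.76 ± 0.10 after 24 h. The median of that list was -0.04 at 12 h and 0.19 at 24 h.

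Markers of other cells were set beside these genes. The summed level of 4 leukocyte markers in the libraries labelled OE ranged from 33.8 to 48.5 CPM at 0 h. It ranged from 75.7 to 84.0 CPM at 12 h and from 72.1 to 86.7 CPM at 24 h. Of 3 tested, 1 was called higher at 12 h and at 24 h, where 1.70% and 4.71% of all genes tested were. That gene was CD14, the lipopolysaccharide co-receptor, at 40.6, 77.7 and 77.9 CPM, while PTPRC stayed at 0.931 to 1.23 CPM and LYZ was at most 0.164 CPM as condition means. Of 3 endothelial markers, set against the same shares, 0 were called at 12 h by edgeR (PECAM1 had an unadjusted p of 0.00581). At 24 h PECAM1 was called higher (0.92 ± 0.21), when CDH5 stood at -0.64 ± 0.24 (adjusted p = 0.0945) and VWF at -0.24 ± 0.55. Of the 8 epithelial markers, 4 were called lower at 24 h, where 651 of 18335 genes tested were called lower. The summed level of the 8 ranged from 7916 to 10277 CPM at 0 h and from 6309 to 6975 CPM at 24 h. The part of these changes in the result was not tested, and in bulk RNA fewer cells of a type and less RNA per cell cannot be told apart.

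In the libraries labelled EV the 2 families were mostly near 0. GBP4 had 0 counts in all 9 libraries and GBP2 had 2 counts in 1 library, with 0 in the other 8. GBP1 summed to 12, 3 and 14 counts over the 3 libraries of 0 h, 12 h and 24 h. GBP3, APOL1 and APOL3 had condition means of 0.453 to 1.97 CPM. APOL2 and APOL6 were expressed at 28.8 to 40.5 CPM.

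With olaparib, 0 of the 8 genes were called at 12 h in the libraries labelled EV by edgeR, where 0.0436% of all genes tested were called in either direction. At an unadjusted p under 0.05 there were 3 (GBP1, APOL1 and APOL3), and DESeq2's Wald test called 0. Without the 12 h library of replicate 1, 383 genes of all those tested were called higher and 79 lower, but 0 of the 8. At 24 h, 3 genes were called, where 8.62% of genes tested were higher and 5.12% lower. APOL2 went from 30.4, 33.1 and 32.5 CPM at 0 h to 42.2, 41.4 and 37.9 CPM at 24 h (log2 fold change 0.34 ± 0.10, adjusted p = 0.0266). APOL6 went from 40.5, 37.9 and 39.5 CPM to 25.6, 27.6 and 33.3 CPM (-0.45 ± 0.15, adjusted p = 0.0475). For APOL1 25 counts stood against 60 over the 3 libraries (1.19 ± 0.37, adjusted p = 0.0392).

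In these 3 genes the libraries of the times did not overlap, as in 20.8% of genes tested that were higher and 19% that were lower, but each call was lost under 8 of 14 alternatives. An offset for GC content and exonic length left none of them, with adjusted p of up to 0.145 for APOL1, 0.13 for APOL2 and 0.176 for APOL6 over the alternatives, and leaving out single libraries left 0 to 2. With the offset the log2 fold change of APOL2 went from 0.34 to 0.18 and that of APOL6 from -0.45 to -0.19, while APOL1 was at 1.07 and ranged from 0.86 to 1.78 over the alternatives. GBP3 (-0.31 ± 0.27) and APOL3 (0.33 ± 0.44) did not pass the test at 24 h.

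Whether the change with olaparib differed between the lines was tested for the 5 genes measurable in both. At 24 h the log2 fold change was higher in the libraries labelled OE than in those labelled EV for APOL6 (by 1.28 ± 0.20, adjusted p = 0.000553), GBP3 (by 0.93 ± 0.30, adjusted p = 0.0336) and APOL2 (by 0.50 ± 0.14, adjusted p = 0.0157), in a comparison with 8.16% of genes tested called higher. APOL6 rose in one line (0.83) and was lower in the other (-0.45). Of the 10 genes next to the GBP cluster, 4 were also called higher and 0 lower in this comparison, with a median of 0.53. Of the 11 next to the APOL cluster, 1 was called higher and 1 lower, with a median of -0.22. The difference was not called for APOL1 (-0.11 ± 0.38) and APOL3 (0.49 ± 0.49), whose intervals ran from -0.90 to 0.67 and from -0.53 to 1.5. The call of GBP3 was lost under 8 of 20 alternatives, that of APOL2 without a filter on low counts (adjusted p = 0.162), and that of APOL6 under none of 20.

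At 12 h none of these 5 differences was called by edgeR, where 0.376% of genes tested were called higher. APOL6 came closest, at 0.84 ± 0.20 with an adjusted p of 0.0621, and it passed the test under 6 of 20 alternatives. At an unadjusted p under 0.05 there were 2 of the 5, APOL6 and APOL2, and over all 8 genes DESeq2's Wald test called 1.

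Between the lines at 0 h, 7 of the 8 genes were higher in HCC1937-OE-BRCA1 and 1 was lower, where 39.4% of genes tested were called higher and 33.3% lower. GBP1, GBP2 and GBP4 passed the filter only because they are high in that line, so they add no support to this count. APOL1 was higher by 6.23 ± 0.26 on the log2 scale, GBP3 by 5.48 ± 0.19, APOL3 by 5.35 ± 0.28 and APOL6 by 1.27 ± 0.14 (adjusted p from 3.3e-16 to 9.3e-08). APOL2 was lower, at -0.51 ± 0.10 (adjusted p = 0.000103), and the libraries of the lines did not overlap, as in 33.7% of genes tested that were lower.

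For the 3 genes with almost no counts in the libraries labelled EV, summed CPM were compared, with a count of 0 set to 3 counts over the 3 libraries of a condition. In HCC1937-OE-BRCA1, GBP4 stood at least 378-fold higher at 0 h, at least 1117-fold higher at 12 h and at least 1024-fold higher at 24 h. GBP2 was at least 269-fold higher at 0 h and at least 283-fold higher at 24 h, and at 12 h, against 2 counts, the ratio was 684 (95% counting interval 189 to 5657). For GBP1 the ratio was 280 at 0 h, 2151 against 3 counts at 12 h (736 to 10434) and 263 at 24 h. These intervals and bounds cover counting error only.

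With olaparib the lines differed in the same genes except APOL2. At 12 h and at 24 h 7 of the 8 genes were higher in HCC1937-OE-BRCA1, where 38.8% and 39.9% of genes tested were called higher, and again GBP1, GBP2 and GBP4 add no support to these counts. The log2 difference of APOL2 was -0.06 ± 0.10 at 12 h (95% interval -0.27 to 0.14) and -0.01 ± 0.10 at 24 h (-0.21 to 0.19), against -0.51 at 0 h. The difference of APOL6 was 2.11 ± 0.15 at 12 h and 2.55 ± 0.15 at 24 h, against 1.27 at 0 h. Which of these differences belong to BRCA1 cannot be told apart from the other differences between the libraries.

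**Figure D5:**
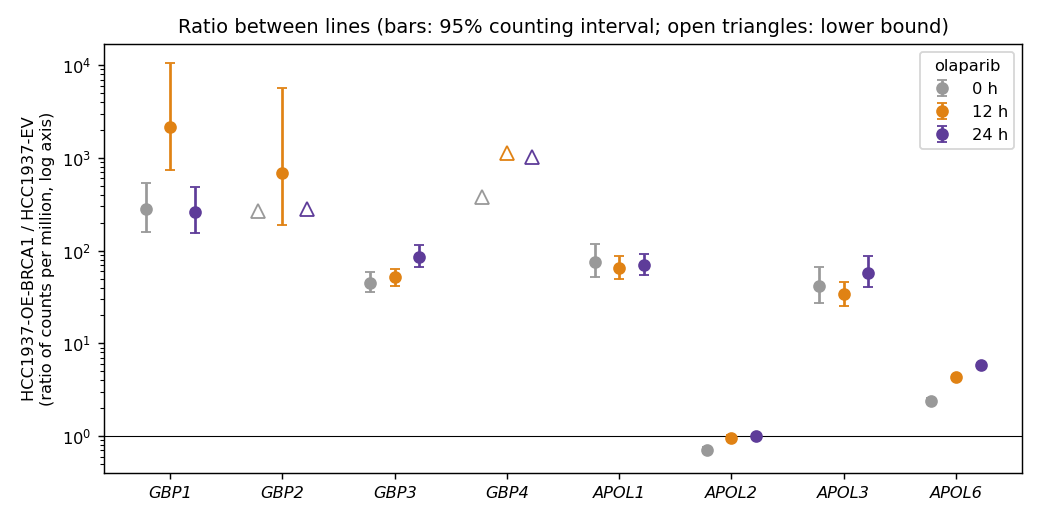
Ratio of summed CPM between the libraries labelled OE and those labelled EV (y axis, log scale) for each gene at 0 h (grey), 12 h (orange) and 24 h (purple), with 95% counting intervals as bars and open triangles for lower bounds where the libraries labelled EV had 0 counts. APOL2 lies at 0.702, 0.958 and 0.995, APOL6 at 2.41, 4.31 and 5.86, and the other 6 genes lie above 30.

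Between the untreated lines, the interferon list had 10 of 18 tested genes higher and 4 lower in HCC1937-OE-BRCA1, and the counts of this and the other lists stand against 39.4% higher and 33.3% lower over all genes tested. USP18 stood at 84.6 against 10.8 CPM (log2 difference 2.97 ± 0.11). IFNLR1, the interferon-λ receptor chain, was at 9.50 CPM against 0 counts in the 3 untreated libraries labelled EV. Of the partners 9 of 13 were higher and 0 lower, among them CASP1 (29.9 against 0.124 CPM), the gasdermin gene GSDMD (193 against 16.2 CPM) and the inflammasome adaptor PYCARD (16.9 CPM against 0 counts). Of the other dynamin GTPases 8 of 12 were higher and 2 lower, with MX1 at 675 against 0.371 CPM, MX2 at 67.6 against 0.206 CPM and DNM1 at 21.3 against 5.80 CPM. At least IFNLR1, CASP1, PYCARD, MX1 and MX2 passed the filter on low counts only through the libraries labelled OE. They therefore add no support to the counts of these 3 lists. Of the genes next to the GBP cluster, 1 of 10 was higher and 8 were lower (median log2 difference -1.415), a larger part lower than over all genes. Of those next to the APOL cluster, 4 of 11 were higher and 3 lower, which is near the share over all genes.

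Genes with the most similar pattern were found by the root mean square (RMS) difference of log2 CPM, each gene centred on its own mean. The member of each family with the highest mean CPM over the 18 libraries was used. For GBP1 over the 9 libraries labelled OE, the nearest of all tested genes was GBP2, with an RMS difference of 0.108 against a median of 0.533 over all genes, followed by TEX14BP (0.116), ENSG00000264456 (0.181), CCL28 (0.181) and FGD2 (0.188). For APOL6 over the same 9 libraries the nearest were DDX60 (0.0705), DTX3L (0.0869), TRIM5 (0.0922), CIITA (0.0992) and CP (0.109), against a median of 0.474. Over all 18 libraries the nearest to GBP1 were KRT4, CBLC, LRAT, TFCP2L1 and ATP10A (0.415 to 0.477, median 4.11), and the nearest to APOL6 were ARHGAP26, ACSL1, ITGA2, MXD1 and SLC44A1 (0.163 to 0.205, median 1.14). The genes share the same libraries, and no test was made.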

How the data were processed

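Total RNA was extracted with TRIzol and libraries were prepared with the NEBNext Ultra II kit (per the labels). The authors deposited unnormalised whole-number counts for each gene, in 1 joint table and in 18 single-library tables that hold the same values. HISAT2, featureCounts, DESeq2, GRCh38 and hg38 are named in the submitters' processing notes. Their roles, the annotation and the strand setting were not given in the sources used here. Library numbers and conditions were taken from the sample titles. The deposited counts were analysed with edgeR 4.0.16 in R 4.3.3, with TMM normalisation and filterByExpr (minimum count 10), which left 18335 of 35044 genes. A quasi-likelihood model with 1 mean per condition was fitted over the 18 libraries, contrasts were tested, p-values were Benjamini-Hochberg adjusted over all genes tested, and genes were called at an adjusted p under 0.05 (biological coefficient of variation 12.9%). Intervals are 95%. An exact permutation test of 3 against 3 libraries cannot go below p = 0.1 and was not used. Same-condition libraries differed by more than sampling noise (chi-square per degree of freedom 3.16 to 39.4). Each was counted as 1 replicate, although such a spread can also be technical and does not show separate cultures. Alternatives were DESeq2's size factors and Wald test (1.42.0), other filters, the compared libraries alone, a replicate block, an offset for GC content and exonic length per library, a log2 fold change over 1, each library left out, and, chosen after seeing the data, the 9 libraries labelled OE alone. Symbols matched 34966 identifiers (99.78%), and exonic lengths and positions came from GENCODE release 29 on GRCh38 (33888 identifiers, 96.7%). Promoters came from RefSeq (GRCh38.p14), with 3 of the 8 members in the table. All 8 members are named, lists are given as counts, naming the 3 genes of largest absolute change among those called in the libraries labelled OE at either time or between the untreated lines, and neighbours are the 5 nearest tested protein-coding genes on each side of a cluster. The members and lists were chosen with earlier results of these data known. Some genes that entered these lists and counts are not reported here by name.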

Additional observations from a re-analysis of the deposited data

Results flagged for a closer look

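The change with olaparib after 24 h differed between the lines for 3 genes, by edgeR's test of the difference between the 2 treatment effects. For APOL6 the log2 fold change was 1.28 higher in HCC1937-OE-BRCA1 (adjusted p = 0.000553), with all 3 libraries at 24 h above those at 0 h in that line and all 3 below in the libraries labelled EV. For GBP3 it was 0.93 higher (adjusted p = 0.0336), on 68 and 57 counts over the 3 libraries labelled EV at 0 h and 24 h. The difference is not particular to GBP3, as 4 of the 10 genes next to the GBP cluster were also called higher. Over all genes tested, 8.16% were. For APOL2 it was 0.50 higher (adjusted p = 0.0157), with a called rise in both lines. In the libraries labelled EV the call of that rise was lost under 8 of 14 alternatives. The call of the difference was lost under 8 of 20 alternatives for GBP3 and under 1 of 20 for APOL2.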

How the results depend on the processing

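Counts of called members rest on 3 libraries per condition and, in the libraries labelled EV, on few reads. With a log2 fold change over 1 required, 2 members were called at 12 h and 2 at 24 h in the libraries labelled OE, 0 between 12 h and 24 h, 1 at 24 h in those labelled EV and 1 for the difference at 24 h. With only the compared libraries fitted, 5 members were called between 12 h and 24 h (2 higher, 3 lower). The GC and length offset left 0 calls at 24 h in the libraries labelled EV, also with the replicate block. For the difference at 12 h, the Wald test called 1 member, no filter 2, at least 10 counts per library 1, and the offset 3, with or without the block. Leaving out single libraries gave 7 to 8 calls at 12 h and 6 at 24 h in the libraries labelled OE, 1 to 2 between these times, 0 to 2 at 24 h in those labelled EV, 0 to 2 for the difference at 12 h and 2 to 3 at 24 h. Of 50 log2 fold changes of members, 674 alternative values kept direction and side of the threshold, 41 lost the call, 12 gained it and 31 changed sign. All changes of sign were in 10 fold changes that were not called. For GBP2 at 24 h these were -0.037 (no filter), -0.0090 (compared libraries), -0.061 (offset), -0.056 (offset with the block) and -0.015 (libraries labelled OE alone). For APOL6 between 12 h and 24 h the offset gave -0.022, also with the block. For APOL1 the difference at 24 h was 0.030 with the offset and 0.029 with the block too. For APOL2 between the lines at 24 h values were 0.028 with DESeq2's size factors and Wald test, 0.012 with at least 10 counts, 0.0088 with the compared libraries and 0.12 with the offset, also with the block. Leaving out single libraries, the ranges were -0.048 to 0.16 for GBP1 and -0.082 to 0.079 for GBP2 at 24 h, -0.10 to 0.0051 for GBP3 and -0.061 to 0.064 for APOL3 between 12 h and 24 h, -0.47 to 0.017 for GBP3 and -0.036 to 1.19 for APOL3 at 24 h in the libraries labelled EV, -0.047 to 0.023 for APOL2 between the lines at 24 h, and -0.70 to 0.22 for APOL1 and -0.37 to 0.86 for APOL3 in the difference at 24 h. The cause was not tested. Over all genes, the calls in the libraries labelled OE went from 312 higher and 111 lower at 12 h to 557 and 548 with the offset, and from 864 and 651 at 24 h to 1514 and 1323. Between 12 h and 24 h 303 calls became 3208 with the compared libraries, and for the difference at 12 h 95 became 644 without a filter. In the libraries labelled EV 8 calls at 12 h became 818 without a filter, and 2520 at 24 h became 5173 with the compared libraries. Between the lines at 0 h, 13330 calls became 8596 with a log2 fold change over 1. Equal library numbers did not pair the samples (correlation of deviations -0.227 to 0.295 over 45 pairs, 5 of them over 0.1). With the replicate block, 8, 6, 2, 0 and 2 members were called at 12 h, 24 h and between them in the libraries labelled OE and at 12 h and 24 h in those labelled EV, 8, 7 and 7 between the lines, and 0 and 3 for the differences.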
